A study of Mus musculus with 4 samples.

Results

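The fibroblast growth factor (Fgf) and epidermal growth factor receptor (ErbB) systems are 2 families of signals and receptor tyrosine kinases. The set consisted of the RefSeq protein-coding genes named Fgf, Fgfr or Nrg followed by a number, together with Egfr, Erbb2, Erbb3, Erbb4 and the 7 EGF-like ligand genes Egf, Tgfa, Areg, Ereg, Hbegf, Btc and Epgn. These names gave 41 of 21887 protein-coding genes, of which 8 encode receptors and 33 encode ligands or ligand-like proteins. The rule used gene names and no measured value, although the set was proposed with earlier results of these data known. Transcription factor binding was mapped by chromatin immunoprecipitation and sequencing (ChIP-seq) in 2 mouse breast cancer cell lines, both derived from tumours of the MMTV-PyMT model, in which a viral promoter active in mammary epithelium drives the polyoma middle T oncogene. Line pBl.1G is labelled epithelial with high Slug and was precipitated with a rabbit monoclonal antibody to Slug (gene Snai2). Line pBl.3G is labelled mesenchymal with high Snail (gene Snai1), and the label of its antibody names both proteins, so Snail and Slug binding cannot be told apart in that library. Neither line was treated, and each factor had 1 library, so no value below has a replicate error and no test between the libraries was possible. Factor, line and antibody differ together, so their parts in any difference between the lists cannot be told apart.

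Ligands of both systems are secreted or shed from the cell surface and bring receptor chains together, which switches on the Ras and MAP kinase cascade. Fgf ligands bind Fgf receptors together with heparan sulfate or, for the hormone-like Fgf15, Fgf21 and Fgf23, with klotho proteins. EGF-like ligands bind Egfr, and some also bind Erbb4, while neuregulins bind Erbb4, and some also bind Erbb3. Erbb2 has no known ligand and pairs with the other receptors. In the mammary gland Areg acts through Egfr in duct growth, Fgf10 and Fgfr2 are needed for the gland to form, and ERBB2 is amplified in a class of human breast cancers. Slug and Snail are zinc finger repressors that bind the E-box CAGGTG.

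The data were 2 peak lists on the mouse build mm10, with 41612 Slug and 28375 Snail peaks. Each peak had a position and a score from the authors' peak caller, which ranks peaks within its own list and does not compare strength between lists. The median score was 81.1 for Slug and 151 for Snail. A gene was counted as having a peak when a peak midpoint lay in the gene or within 10 kb of either end. Peak lists hold no expression, so the epithelial and mesenchymal labels were not checked against marker genes here, and sequencing depth is unknown.

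The promoters shown first are all 10 member records that a peak met, at 9 genes. RefSeq promoter records on GRCm38.p6, the assembly of mm10, run from 250 bases before the start site to 50 bases after it. They were matched by symbol for 29 of the 41 genes, with 37 records. Capitals mark CAGGTG or its reverse complement CACCTG. A Slug peak met the records of Areg and of both Fgf12 start sites shown. A Snail peak covered the whole record of Areg, Btc, Tgfa, Egfr, Erbb2, Fgf2 and an internal start of Egf, and 280 of the 300 bases of Fgf5.
Areg, chr5:91139349-91139648, plus strand: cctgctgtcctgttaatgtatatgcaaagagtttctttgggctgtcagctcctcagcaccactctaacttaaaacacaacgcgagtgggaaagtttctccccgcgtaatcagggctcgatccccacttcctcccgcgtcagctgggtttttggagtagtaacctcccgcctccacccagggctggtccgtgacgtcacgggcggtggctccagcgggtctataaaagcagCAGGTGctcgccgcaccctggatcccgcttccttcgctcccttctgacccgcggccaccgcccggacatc
Fgf12, chr16:28753194-28753493, minus strand: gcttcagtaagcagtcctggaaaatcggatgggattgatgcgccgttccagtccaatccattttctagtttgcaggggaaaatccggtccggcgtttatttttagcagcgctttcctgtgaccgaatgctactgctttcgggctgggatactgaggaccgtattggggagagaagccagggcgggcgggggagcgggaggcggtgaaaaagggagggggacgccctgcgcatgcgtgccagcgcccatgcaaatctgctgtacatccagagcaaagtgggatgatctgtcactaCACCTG
Fgf12, internal start, chr16:28564446-28564745, minus strand: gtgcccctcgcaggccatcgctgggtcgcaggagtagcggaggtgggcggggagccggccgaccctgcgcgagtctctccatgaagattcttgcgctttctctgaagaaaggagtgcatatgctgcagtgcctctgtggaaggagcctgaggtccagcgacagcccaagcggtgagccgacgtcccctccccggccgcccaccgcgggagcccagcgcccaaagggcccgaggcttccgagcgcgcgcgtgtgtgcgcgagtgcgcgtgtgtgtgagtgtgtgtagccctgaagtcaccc
Btc, chr5:91402945-91403244, minus strand: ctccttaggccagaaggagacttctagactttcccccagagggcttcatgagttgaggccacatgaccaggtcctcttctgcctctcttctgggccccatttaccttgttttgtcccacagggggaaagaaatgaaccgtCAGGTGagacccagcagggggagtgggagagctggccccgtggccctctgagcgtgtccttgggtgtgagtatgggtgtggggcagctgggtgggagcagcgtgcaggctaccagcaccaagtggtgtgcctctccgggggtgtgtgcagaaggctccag
Tgfa, chr6:86194972-86195271, plus strand: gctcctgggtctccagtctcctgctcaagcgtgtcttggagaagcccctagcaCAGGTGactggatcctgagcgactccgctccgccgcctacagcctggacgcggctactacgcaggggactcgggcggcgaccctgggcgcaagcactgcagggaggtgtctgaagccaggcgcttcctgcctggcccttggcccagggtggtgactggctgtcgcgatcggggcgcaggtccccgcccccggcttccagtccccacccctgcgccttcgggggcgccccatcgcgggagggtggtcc
Egf, internal start, chr3:129725037-129725336, minus strand: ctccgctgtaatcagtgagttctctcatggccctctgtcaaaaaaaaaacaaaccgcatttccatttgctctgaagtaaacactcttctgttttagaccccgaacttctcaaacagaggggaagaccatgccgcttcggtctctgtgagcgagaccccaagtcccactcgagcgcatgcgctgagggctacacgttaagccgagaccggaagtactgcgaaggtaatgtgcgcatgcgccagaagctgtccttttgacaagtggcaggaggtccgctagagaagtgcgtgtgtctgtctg
Fgf2, chr3:37348403-37348702, plus strand: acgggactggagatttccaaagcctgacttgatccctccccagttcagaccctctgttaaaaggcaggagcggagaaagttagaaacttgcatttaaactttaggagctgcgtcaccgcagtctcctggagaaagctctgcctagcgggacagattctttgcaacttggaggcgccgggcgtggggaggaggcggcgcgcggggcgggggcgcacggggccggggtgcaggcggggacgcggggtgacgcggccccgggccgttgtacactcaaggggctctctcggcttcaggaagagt
Fgf5, chr5:98253934-98254233, plus strand: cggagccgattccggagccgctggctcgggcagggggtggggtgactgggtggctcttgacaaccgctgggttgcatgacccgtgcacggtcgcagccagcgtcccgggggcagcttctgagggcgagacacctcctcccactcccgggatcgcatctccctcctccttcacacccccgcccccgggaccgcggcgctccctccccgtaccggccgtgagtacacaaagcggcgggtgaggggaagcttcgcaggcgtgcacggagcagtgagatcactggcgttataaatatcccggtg
Egfr, chr11:16751953-16752252, plus strand: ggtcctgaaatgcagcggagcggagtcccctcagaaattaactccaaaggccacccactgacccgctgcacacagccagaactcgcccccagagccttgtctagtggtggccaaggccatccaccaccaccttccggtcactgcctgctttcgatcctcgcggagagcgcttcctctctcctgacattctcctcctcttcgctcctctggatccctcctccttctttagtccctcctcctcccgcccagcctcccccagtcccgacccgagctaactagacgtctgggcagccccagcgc
Erbb2, chr11:98412234-98412533, plus strand: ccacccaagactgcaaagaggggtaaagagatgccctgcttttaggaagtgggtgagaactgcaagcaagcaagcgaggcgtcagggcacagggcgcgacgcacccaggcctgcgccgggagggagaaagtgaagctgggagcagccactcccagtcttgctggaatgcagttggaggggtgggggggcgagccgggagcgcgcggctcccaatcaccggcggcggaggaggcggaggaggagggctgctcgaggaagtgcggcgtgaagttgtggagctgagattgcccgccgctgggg

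In Areg the motif CAGGTG or CACCTG began 20 bases before the start site, inside the Slug peak and the Snail peak that cover it. The motif in the first Fgf12 record began 44 bases after the start site and also lay inside a Slug peak. In Btc it began 110 bases and in Tgfa 197 bases before the start site, both inside Snail peaks and outside Slug peaks. The other 6 records shown, of Egf, Egfr, Erbb2, Fgf2, Fgf5 and the internal Fgf12 start, held no copy. Across all 37 member records 8 held the motif, against 19.7% of 21263 protein-coding records. All 8 belonged to ligand genes (8 of 30 records) and none to receptors (0 of 7 records). Over all protein-coding records the motif was present in 39.4% of the 845 met by a Slug peak and in 16.7% of the 10472 met by a Snail peak. A match of these letters is a description of the sequence and not a measured site.

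A Snail peak overlapped 8 of 37 member records (21.6%), against 49.2% of all protein-coding records. The 8 were those of Areg, Btc, Tgfa, Egf at its internal start, Fgf2, Fgf5, Egfr and Erbb2. Of the 37 records 8 belong to Fgf12 and Fgf13, and counted per gene a Snail peak met 8 of 29 members (27.6%), against 51.1% of 17492 protein-coding genes with a record. The other 12 members have no record and are not in these shares, and 6 of them had a Snail peak within 1 kb of a gene end. A Slug peak overlapped 3 member records (8.11%), against 3.97% of all. One of these was the Areg record, and the other 2 belong to different start sites of Fgf12, which encodes a protein that stays in the cell and modulates sodium channels.

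Over whole genes and their flanks, Slug peaks were recorded at 28 of the 41 members (68.3%) and Snail peaks at 24 (58.5%). The same window held one at 56.2% (Slug) and 66.7% (Snail) of all protein-coding genes. Both background shares fall inside the 95% Wilson intervals of the members' shares (53.0 to 80.4% and 43.4 to 72.2%). With no score minimum the set as a whole was thus close to the background in each library. Both lists had a peak at 20 members (48.8%, background 44.6%), Slug alone at 8, Snail alone at 4, and neither at 9 (22%, background 21.7%). Within 1 kb of a gene end, Slug peaks were recorded at 7 members (17.1%) and Snail peaks at 15 (36.6%), against backgrounds of 12.1% and 48.7%. The 41 windows held 103 Slug and 55 Snail peaks, none of them counted for more than 1 member. With scores of at least 100, 23 of the 41 members had a Slug peak (56.1%, 95% Wilson interval 41.0 to 70.1). The share of all coding genes was then 34%, below that interval, but it was not matched for gene length. Over 300 kb in length were 6 of the 41 members and 557 of the 21887 coding genes. Those 6 members all had top Slug scores between 241 and 736. At the same score minimum the Snail count was 21 (51.2%), against 61%.

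**Figure D1:**
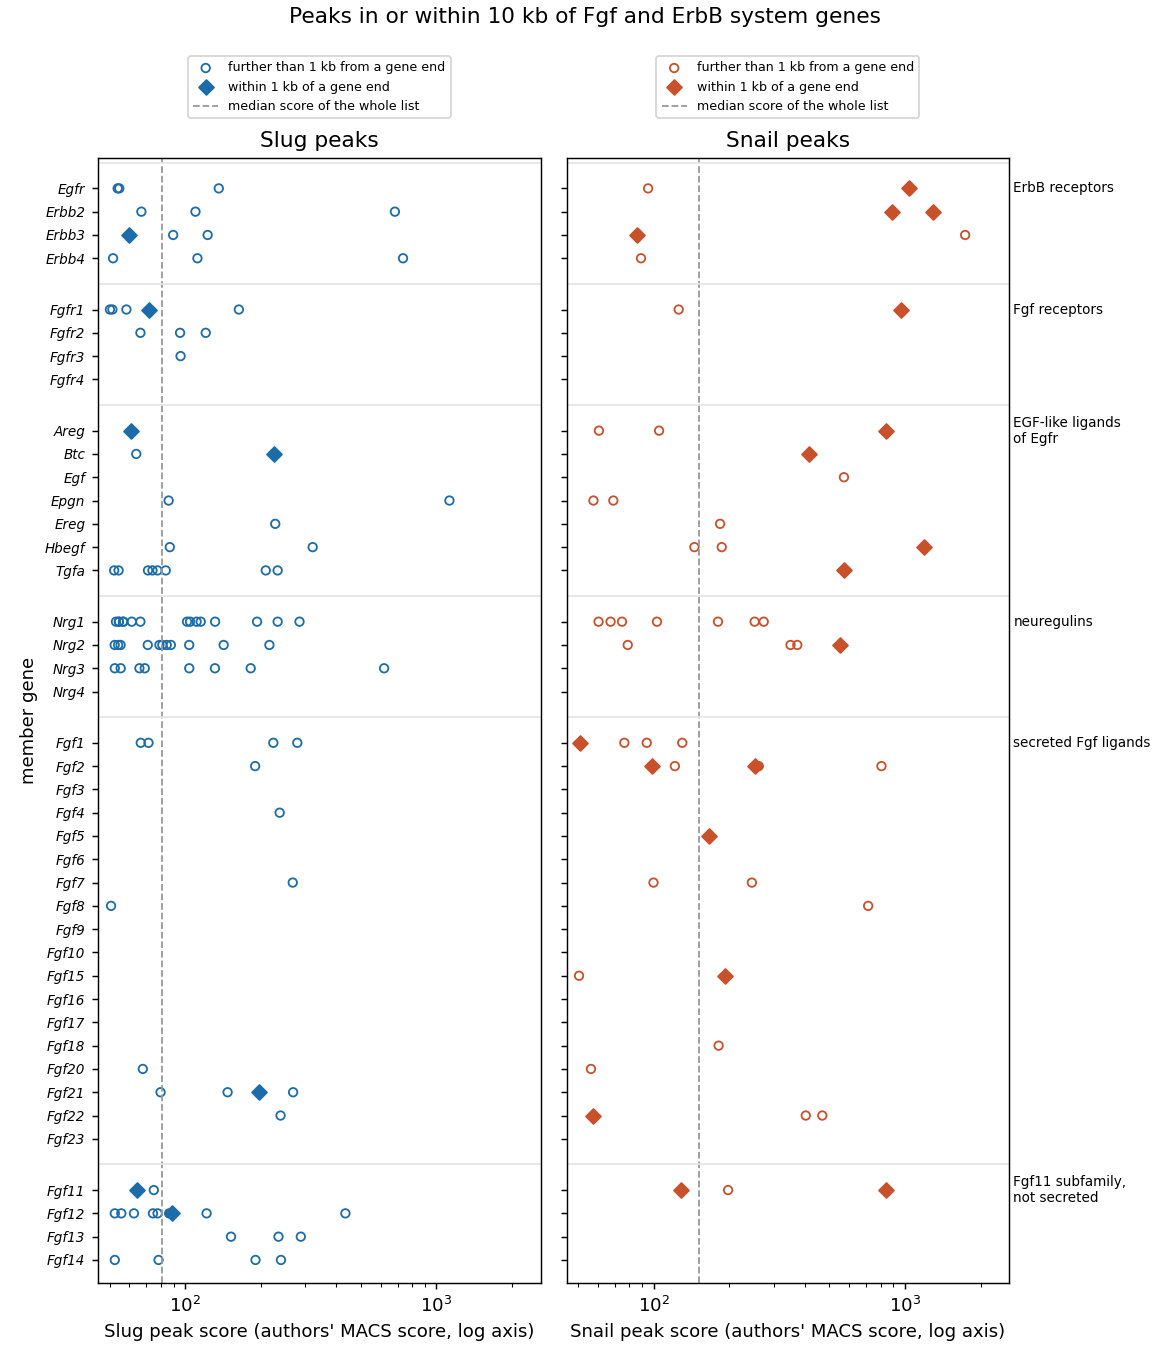
Scores of every Slug peak (left) and Snail peak (right) in or within 10 kb of each of the 41 genes, on log axes, with the rows grouped by role. Filled diamonds are peaks within 1 kb of a gene end, open circles the rest, and dashed lines the median score of each whole list (81.1 and 151). Among receptors the top Snail scores of Fgfr1, Egfr, Erbb2 and Erbb3 run from 967 to 1736, and 9 genes have no point in either panel.

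Receptors were set against ligands next. A Slug peak was present at 7 of 8 receptors (87.5%, 95% Wilson interval 52.9 to 97.8) and at 21 of 33 ligands (63.6%, 46.6 to 77.8). A Snail peak was present at 5 receptors (62.5%, 30.6 to 86.3) and at 19 ligands (57.6%, 40.8 to 72.8). The intervals overlap for each library, and they treat genes as independent draws, so no difference between receptors and ligands was resolved at these numbers. Receptor genes were also longer, with a median of 41.1 kb against 22.9 kb. Per 100 kb of window, receptors held 1.28 Slug and 0.549 Snail peaks and ligands 1.46 and 0.817, the reverse order of the shares. These values were pooled, so the longest genes weigh most, and the order varied with length. At 10 to 30 kb, 4 receptors held 4.41 Slug and 2.52 Snail peaks per 100 kb, and 4 ligands 2.07 and 3.45. Over 300 kb, the 1 receptor, Erbb4, held 0.274 and 0.0912, and 5 ligands 0.948 and 0.17. Of the Snail peaks, 5 of 9 at receptors and 13 of 46 at ligands lay within 1 kb of an end of the gene.

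The systems were also set side by side. Snail peaks were found at 13 of 15 ErbB system genes (86.7%, 62.1 to 96.3) and at 11 of 26 Fgf system genes (42.3%, 25.5 to 61.1), against 66.7% of all coding genes. The Slug counts were 13 of 15 (86.7%, 62.1 to 96.3) and 15 of 26 (57.7%, 38.9 to 74.5), against 56.2% of all coding genes. Per 100 kb of window, pooled so that the longest genes weigh most, the order of the Snail values was the reverse. The values were 0.702 peaks in the ErbB and 0.836 in the Fgf system. This grouping was made after the values were seen, neighbouring genes are not independent draws, and the median gene length was 63.4 kb in the ErbB and 15.6 kb in the Fgf system, so the intervals are a description and no test of a difference. Within 1 kb of an end the Snail shares were 53.3% (30.1 to 75.2) in the ErbB and 26.9% (13.7 to 46.1) in the Fgf system, with overlapping intervals. The share of all coding genes in that window was 48.7%.

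**Figure D2:**
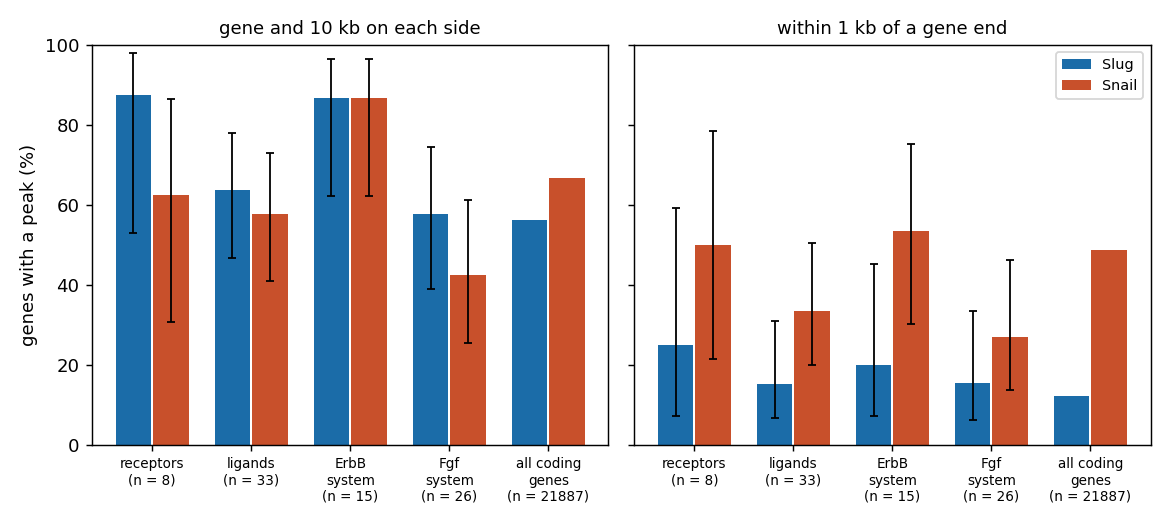
Percentage of genes with a Slug (blue) or Snail (orange) peak in the gene or within 10 kb (left) and within 1 kb of a gene end (right), for receptors, ligands, the ErbB and Fgf systems and all protein-coding genes. Error bars are 95% Wilson intervals over genes and are not drawn for all coding genes. The Fgf system has the lowest Snail share on the left (42.3%), below the 66.7% of all coding genes.

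All 4 ErbB receptors had peaks of both libraries. Egfr (chr11:16752203-16913907) had a Snail peak of 2078 bp at its start site, at chr11:16751563-16753640 with a score of 1038, and a second inside the gene with a score of 95.1. Its 3 Slug peaks all lay inside the gene, at least 17.3 kb from either end, with scores of 53.9, 136 and 54.7. The libraries thus marked different places in the gene, and no Egfr peaks overlapped.

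The start site of Erbb2 (chr11:98412484-98437716) carried a Snail peak at chr11:98412036-98413315, scoring 1288, in the top 5.45% of the list. Another Snail peak, with a score of 890, lay 0.828 kb beyond its far end, within 1 kb of an end of the neighbouring gene Mien1. The highest Slug score, 683, belonged to a peak 9.21 kb beyond the far end, at an end of Grb7, which encodes an adaptor that binds ErbB receptors. Inside Erbb2 itself the 2 Slug peaks scored 67.0 and 110. The high-scoring sites of this window thus lay at ends of Erbb2 and of its neighbours.

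Erbb3, whose protein has little kinase activity of its own and relies on its partners, had the highest Snail score of all members. That peak, at chr10:128565118-128566803 with a score of 1736, lay 1.56 kb outside the low-coordinate end and within 1 kb of an end of Pa2g4, which encodes an Erbb3-binding protein. At the high-coordinate end of Erbb3 a Snail peak scoring 85.8 and a Slug peak scoring 59.8 overlapped, both below the median of their lists. Erbb4, a gene of 1080 kb, had no peak of either library within 10 kb of an end. Its Slug peaks, with scores of 51.7, 736 and 112, and its 1 Snail peak, with a score of 89.0, were all deep inside the gene. The Erbb4 peak at chr1:68175186-68175453 ranked in the top 1.08% of the Slug list.

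The Fgf receptors differed from each other in the Snail list. Fgfr1, a receptor for many Fgf ligands, was the only one of the 4 with Snail peaks. Its low-coordinate end carried a Snail peak scoring 967 at chr8:25518517-25519497, which overlapped a Slug peak with a score of 71.9. A further overlapping pair, with scores of 126 for Snail and 58.4 for Slug, lay 9.40 kb beyond the other end, inside the gene Letm2. The other 3 Slug peaks of Fgfr1 scored 50.2, 51.3 and 164.

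Fgfr2, whose splice forms separate epithelium from mesenchyme, had 3 Slug peaks between 14.4 and 33.1 kb inside its low-coordinate end and no Snail peak. Their scores were 66.4, 121 and 95.4, and the nearest Snail peak lay 253 kb outside the gene. Fgfr3 had a single Slug peak with a score of 95.9, lying 8.89 kb outside the gene, and Fgfr4 had no peak of either library. The nearest Snail peaks of Fgfr3 and Fgfr4 were 22.3 and 17.2 kb away.

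Of the EGF-like ligands of Egfr, all 7 lay at Snail peaks (95% Wilson interval 64.6 to 100%) and all but Egf at Slug peaks (48.7 to 97.4%). Both intervals include the shares of all coding genes, 66.7% and 56.2%. Hbegf, which is shed from the membrane by proteases, had the highest Snail score of any ligand, 1186, at its high-coordinate end (chr18:36515082-36516285). A Slug peak with a score of 322 lay 1.61 kb inside the same end, and no Hbegf peaks overlapped. Tgfa, an autocrine ligand of epithelial cells, had a Snail peak scoring 572 on its start site. Its 8 Slug peaks lay away from that end: the nearest lay 22.6 kb from the start site, and 5 of the 8 were within 8 kb of the far end, with scores from 74.1 to 233. Egf, the founding ligand of the family, had 1 peak, from the Snail list and scoring 572, at chr3:129724846-129725412. It lay 0.0430 kb from the internal start site shown above and 30.2 kb from the outer one, which no peak met.

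Epgn, Ereg, Areg and Btc are neighbours on chromosome 5, within 395 kb including 10 kb on each side. That stretch held 8 Slug and 12 Snail peaks, and 3 places where the lists overlapped. At the Areg start site the Snail peak (chr5:91139205-91140182) scored 839 and the Slug peak (chr5:91139479-91139629) 61.0, the former high and the latter low in its list. At the Btc start site the overlapping peaks scored 415 for Snail and 226 for Slug. The remaining pair lay 7.66 kb before Epgn, inside the neighbouring gene Mthfd2l, and had the opposite ranks. Its Slug score of 1127 (chr5:91019624-91020081) was the highest of any member, in the top 0.459% of the list, while its Snail score of 57.6 ranked 25681 of 28375. At Ereg a Slug peak scoring 228 lay outside the gene and a Snail peak scoring 184 inside it.

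**Figure D3:**
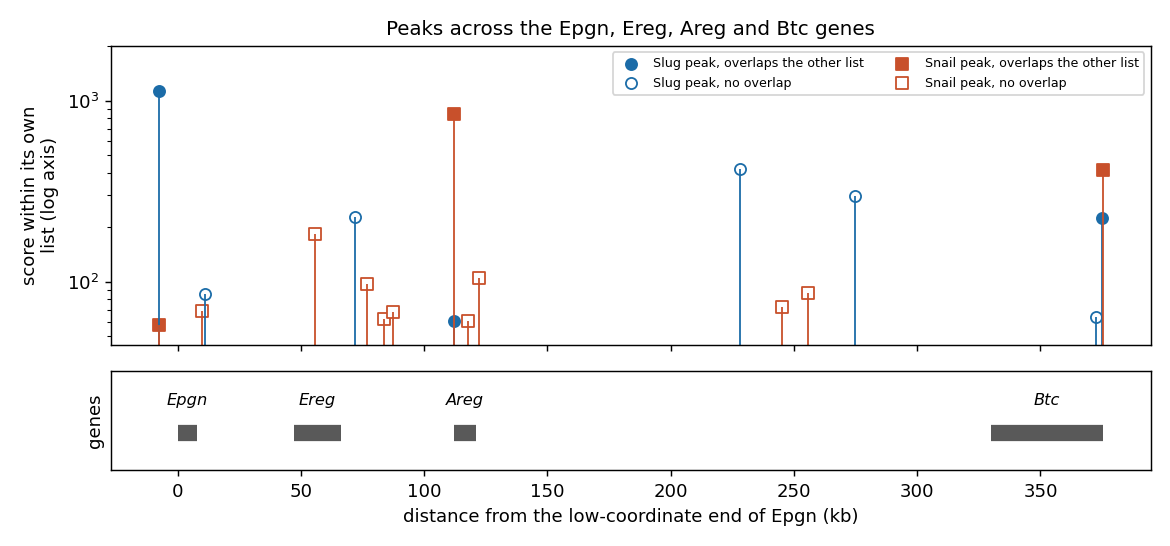
Peaks across the 4 neighbouring ligand genes, by distance in kb from the low-coordinate end of Epgn. Height is the score within each peak's own list on a log axis, circles are Slug and squares Snail, filled symbols overlap a peak of the other list, and grey bars are the 4 member genes only. The 3 overlapping pairs lie before Epgn and at the start sites of Areg and Btc.

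Neuregulins showed Slug peaks in the gene interior rather than at the ends. Nrg1, the main ligand of Erbb3 and Erbb4, is 1080 kb long and had 15 Slug peaks with scores from 53.0 to 285 and 7 Snail peaks with scores from 60.4 to 274. None lay within 10 kb of an end. The 7 Snail peaks fell between 201 and 486 kb from the low-coordinate end, whereas the Slug peaks ran from 27.3 to 1021 kb. At 202 kb a Slug peak with a score of 102 overlapped a Snail peak scoring 252. Nrg2 had 11 Slug peaks with scores from 52.4 to 216, and 4 Snail peaks, the highest at 551 across its high-coordinate end. Nrg3, a ligand of Erbb4 best known from the nervous system, had 8 Slug peaks, the highest at 619, and no Snail peak within 1230 kb of the gene. Nrg4 had no peak of either library.

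Among the 18 secreted Fgf genes, 8 had a Slug and 9 a Snail peak, 6 had both and 7 had neither. The shares, 44.4% and 50%, compare with 56.2% and 66.7% of all coding genes and with 35.7% and 49.4% of those under 10 kb, and the median length of these 18 was 9.29 kb. Fgf2, a widely expressed ligand stored in the matrix, had 5 Snail peaks, with scores of 98.2, 253, 262, 121 and 807. The 98.2 and 253 peaks lay on and just after its start site, and the 807 peak lay 9.42 kb beyond its far end, at the ends of Nudt6 and Spata5. Its 1 Slug peak scored 190. Fgf1, another broadly acting ligand, had 4 peaks of each library, with Slug scores from 66.6 to 279 and Snail scores from 50.9 to 130, and all of them also lie within the overlapping gene Arhgap26.

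Fgf7, a mesenchymal ligand that acts on epithelial Fgfr2, had an overlapping pair 5.47 kb before its start, inside Fam227b, where the Slug peak scored 268 and the Snail peak 246. Fgf5 had 1 Snail peak, with a score of 166, on its start site, and Fgf18 one with a score of 181, 1.27 kb outside the gene. Of the hormone-like members, Fgf21 had 4 Slug peaks with scores of 148, 196, 79.8 and 269 around its 1.60 kb and no Snail peak, Fgf15 had 2 Snail and no Slug peaks, and Fgf23 had none. Fgf4 had 1 Slug peak, with a score of 238, 1.23 kb before its start. For several short genes the peak belonged as much to a neighbour. The Snail peak near Fgf8, with a score of 714, lay at an end of Npm3. Fgf22 had 3 Snail peaks: 1 scoring 403 at an end of Polrmt, 1 scoring 469 inside Rnf126 and 1 scoring 57.2 inside Fgf22 itself. Fgf20 had 1 weak peak of each library, at 67.8 and 56.3.

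Members with no peak of either library were Fgf3, Fgf6, Fgf9, Fgf10, Fgf16, Fgf17, Fgf23, Nrg4 and Fgfr4, which are 7 secreted Fgf genes, 1 neuregulin and 1 receptor. They included Fgf10, the mesenchymal signal of early mammary development, while its receptor gene Fgfr2 had Slug peaks only. Of the 13 members under 10 kb 8 (61.5%) had a Slug and 7 (53.8%) a Snail peak. The Wilson intervals of these shares were 35.5 to 82.3% and 29.1 to 76.8%. The shares of all coding genes under 10 kb, 35.7% and 49.4%, lay inside these intervals, the Slug share only just.

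Long members had peaks in the Slug list and mostly none in the Snail list. Of the 6 members over 300 kb (Nrg1, Nrg3, Erbb4, Fgf12, Fgf13 and Fgf14) all had Slug peaks and 2, Nrg1 and Erbb4, had Snail peaks. In the 557 protein-coding genes of that length the shares were 98.9% for Slug and 72.5% for Snail. Per 100 kb of window these members held 0.806 Slug and 0.154 Snail peaks, against 1.46 and 0.469 for genes over 300 kb, so peaks of both libraries were sparser in them. The lengths were not matched, with a median of 890 kb in these members and 451 kb in that class. Fgf12 had 9 Slug peaks, of which the highest scored 434 and 6 lay between 407 and 500 kb from its low-coordinate end. Fgf13 had 3, with scores from 152 to 289, and Fgf14 had 4, with scores from 52.5 to 241. Fgf11, the short gene of this subfamily, had 2 Slug and 3 Snail peaks, with a highest Snail score of 842. Each lay within 1 kb of an end of the neighbouring genes Chrnb1 or Tmem102. Of these, 1 Slug and 2 Snail peaks also lay within 1 kb of an end of Fgf11 itself.

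**Figure D4:**
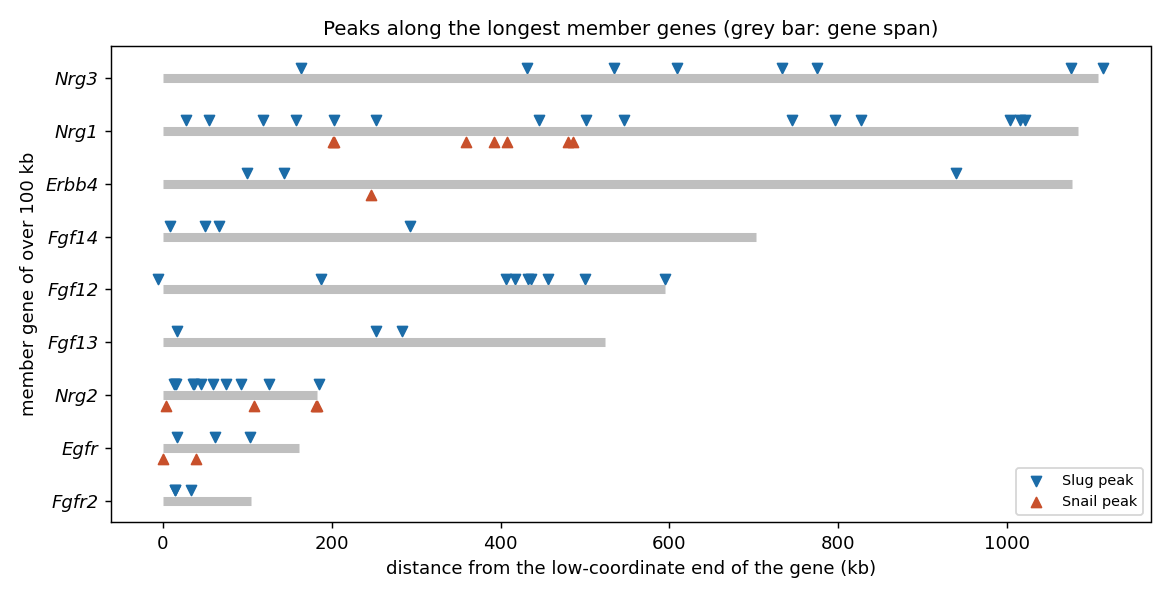
Slug peaks (blue, above each bar) and Snail peaks (orange, below) along the 9 members over 100 kb, by distance in kb from the low-coordinate end of each gene. The 3 Slug peaks of Fgfr2 lie near its low-coordinate end, the 7 Snail peaks of Nrg1 fall between 201 and 486 kb, and Fgf12, Fgf13, Fgf14, Nrg3 and Fgfr2 have no Snail peak.

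The place of the peaks within genes was compared with that of all peaks in or near protein-coding genes. Of the 103 Slug peaks 75 (72.8%) lay inside a member gene, 60 (58.3%) over 10 kb from both ends, and 7 (6.80%) within 1 kb of an end. Of the 55 Snail peaks 31 (56.4%) lay inside, 15 (27.3%) over 10 kb from both ends, and 18 (32.7%) within 1 kb. Among all peaks in or near protein-coding genes 78.9% of Slug and 73.4% of Snail peaks were inside some gene, 53.7% and 24.4% over 10 kb from both of its ends, and 10.6% and 47.1% within 1 kb of an end. An interior position was thus common to Slug peaks at large and not particular to the members. The 2 sets of shares are not alike in measure. Member peaks were placed against the member gene only, and the others against any protein-coding gene. Member peaks inside or at an end of a neighbouring gene thus lower the member shares, and no deficit can be read from them. Overlap between the lists was found at 9 Slug peaks (8.74%, whole list 12.1%) and 9 Snail peaks (16.4%, whole list 16.6%). These pairs lay at Areg, Btc, Epgn, Erbb3, Fgf7, Fgf11 and Nrg1 and at 2 places of Fgfr1. Of the 24 Snail peaks outside the member genes 8 were within 1 kb of an end of another protein-coding gene, as were 5 of the 28 such Slug peaks.

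A selection of 35 further genes of these pathways, which act around the receptors, was counted in the same window. It was picked by hand, is not complete and leaves out Grb7, for one. Of the 35 genes 34 (97.1%, all coding genes 66.7%) lay at a Snail peak and 27 (77.1%, all coding genes 56.2%) at a Slug peak. These genes run from 2.05 to 116 kb and were not matched for length. The shares of coding genes of 10 to 30 kb were 73.6% for Snail and 54% for Slug. At 30 to 100 kb they were 79.4% and 72.6%. Counting only peaks up to 1 kb from the ends left 29 of the 35 genes for Snail and 4 for Slug. The shares of all coding genes were then 48.7% for Snail and 12.1% for Slug. Each of the 8 adaptors, which link receptors to Ras, had a Snail peak by an end. Top Snail scores over the whole window included 1891 for Shc1 and 1135 for Sos1, and Grb2 had a Slug peak at 904. Of 13 feedback inhibitors 12 had a Snail peak at an end. Their top Snail scores over the whole window included 1345 for Spred1, 1121 for Spry4 and 1065 for Dusp6, a phosphatase of MAP kinases. Where a gene had several Snail peaks, its top score was not traced to the peak at the end. Spry3 was the only gene of the 35 with no peak. The ligand-releasing proteases Adam17 and Adam10 had Snail scores of 1680 and 1401, and Etv4, an ETS factor induced by Fgf signalling, had 1711 for Snail and 442 for Slug. The 8 Fgf co-receptor and binding genes all lay at Snail peaks and 5 at Slug peaks, with Fgfbp3 at a Snail score of 1538.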

How the data were processed

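The deposited score of each peak and its position were used as the authors gave them, with 1 list per library. Per the submitters' processing notes the tools were Bowtie and MACS 1.4.2, on build mm10. Their settings and the control used for peak calling were not given in the sources used here. The 2 input DNA libraries were not used here. Peak starts were converted to 1-based positions. Genes came from the RefSeq table of GRCm38.p6 (chromosomes 1 to 19, X and Y), which gives no exons, so exons and introns were not separated. Start sites and strands came from the RefSeq promoter records of GRCm38.p6. Peaks were assigned by midpoint, and overlap meant at least 1 bp. Counting was tested on simulated peaks. Depth is unknown, so no interval on a peak could be given. Wilson intervals over genes cover counting error only. With 1 library per factor there was no test. Named were all receptors, ligands with both libraries within 1 kb of an end, the 5 ligands highest by score in each list, genes without peaks, and further genes that make up a stated category. Members and lists were chosen with earlier results of these data known. The alternatives changed the window, score minimum, list length, assignment, overlap, ligand definition and motif. Python 3.11.15, numpy 2.4.6, pandas 2.3.3, scipy 1.17.1 and matplotlib 3.10.9 were used.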

Additional observations from a re-analysis of the deposited data

How the results depend on the processing

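The window mattered most. Within 1 kb of a gene end, members with a Slug peak numbered 7, with a Snail peak 15 and with both 5. The ligand shares were 15.2% for Slug and 33.3% for Snail, and the receptor share was 25.0% for Slug. The background moved with the window, to 12.1% of all coding genes for Slug, 48.7% for Snail and 8.88% for both. In gene bodies with no flank, members with a Slug peak numbered 18 (43.9%) and with both 11 (26.8%), against 36.5% and 24.5% of all coding genes. The ligand share there was 36.4% for each library, against 36.5% for Slug and 47.9% for Snail. With gene ends within 10 kb alone the receptor Slug share was 50%, because the Slug peaks of Egfr, Erbb4 and Fgfr2 are internal. The share of all coding genes was 47.6%. Member Slug peaks that overlap a Snail peak numbered 2 of 103 under reciprocal overlap of 50%, against 3.73% of the whole Slug list. With scores of at least 100 they numbered 3 of 45, against 10.1% of the whole list. Any CANNTG was present in 26 of 37 member promoter records, against 69.0% of all. The other 48 values moved by less than 1.5 times, or stayed within the interval of the share. Among them are the 23 members with a Slug peak at scores of at least 100, where the share of all coding genes, not matched for length, fell to 34%. With equal numbers of peaks in the lists 26 members had a Slug peak, against 46.2% of all coding genes. The 48 values also include leaving out peaks at another gene's end, an alternative chosen after seeing the data. It left 26 members with a Slug and 22 with a Snail peak. No paired analysis was possible because each factor has 1 library. Without read counts, a missing peak cannot be told from low depth.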

Other observations

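Some members sit close to the 10 kb limit of the window. Among those counted, the Snail peak of Fgf20 lay 9.72 kb from the gene and the 807-scoring Snail peak of Fgf2 9.42 kb from it. Just outside were the nearest Snail peak of Nrg4 at 11.1 kb and the nearest Slug peak of Fgf17 at 11.9 kb. Fgf16 was far from both lists, with its nearest Slug peak at 88.1 kb and its nearest Snail peak at 153 kb.

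Some Fgf genes lie side by side on a chromosome. Fgf3, Fgf4 and Fgf15, within 82.3 kb of chromosome 7 including flanks, held 1 Slug peak, at Fgf4, and 2 Snail peaks, at Fgf15, which is 1.21 and 2.43 per 100 kb. All protein-coding windows held 1.96 and 2.14. Fgf6 and Fgf23, within 86.8 kb of chromosome 6, held 1 Slug peak with a score of 51.3 between them and no Snail peak, which is 1.15 and 0 per 100 kb. The 395 kb of Epgn, Ereg, Areg and Btc held 2.02 Slug and 3.03 Snail peaks per 100 kb.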
